A study of Mus musculus with 16 samples.

Results

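The subject is a set of 10 transcription factors that set epithelial lineage, *Trp63*, *Foxa1*, *Foxa2*, *Sox2*, *Sox9*, *Elf3*, *Elf5*, *Grhl2*, *Klf5* and *Ehf*. They were taken by name as known regulators of basal, luminal and squamous epithelium, and are 10 of the 31274 genes measured. RNA was sequenced from whole seminal vesicles (SVs) of mice at week 5, near puberty, in 4 groups of 4 samples. WT-veh and WT-DES were wild type, whereas αERKO-veh and αERKO-DES lacked oestrogen receptor α (ERα), through a disrupted *Esr1* gene, in every tissue. DES (diethylstilbestrol), a synthetic oestrogen, was injected under the skin of pups daily from day 1 to day 5 of life, at 2 µg for each pup, and all veh animals received corn oil alone. The study's methods describe RNA of 3 pools of mice for WT-DES and of 4 single mice for each of the other groups, while the table holds 4 WT-DES samples. Which WT-DES samples share a pool was not stated, so p-values measure the spread between these samples.

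The SV epithelium is made of tall secretory luminal cells over scattered basal cells. Basal cells of many glands are marked by p63, the product of *Trp63*, which is also required for stratified squamous epithelium. Luminal identity in androgen-responsive glands rests on factors such as FOXA1, a pioneer factor that opens chromatin for other factors. Epithelium-specific ETS factors (*Elf3*, *Elf5* and *Ehf*) and Grainyhead-like factors (*Grhl2*) act on differentiation and cell junction genes. Oestrogen exposure of the male tract is known to provoke squamous metaplasia, the replacement of glandular by stratified squamous cells.

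The deposited unit was FPKM, which counts fragments per length of transcript and per size of the library, so levels can be compared between genes, but fragment counts and depth are unknown. Summed over genes, FPKM came to 375207 to 652708 in the 16 samples and was lowest in WT-DES. *Esr1* was at 2.81 to 4.55 FPKM in WT-veh, 8.74 to 19.6 in WT-DES and 0.91 to 1.75 in all αERKO samples, in order with the labels. The SV secretory genes, which define this tissue, had a summed level of 34375 to 72709 FPKM over 10 genes in WT-veh and both αERKO groups and stood at 2570 to 8490 FPKM in WT-DES. Changes were tested with limma on log2(FPKM + 1) over the 15988 genes whose mean FPKM was above 1 in at least 1 group. A gene was called changed (a DEG) at a Benjamini-Hochberg adjusted p of at most 0.05 and group means that differed by at least 1.5 times. Of the 10 factors, 9 passed the minimum. *Foxa2* did not.

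**Figure D1:**
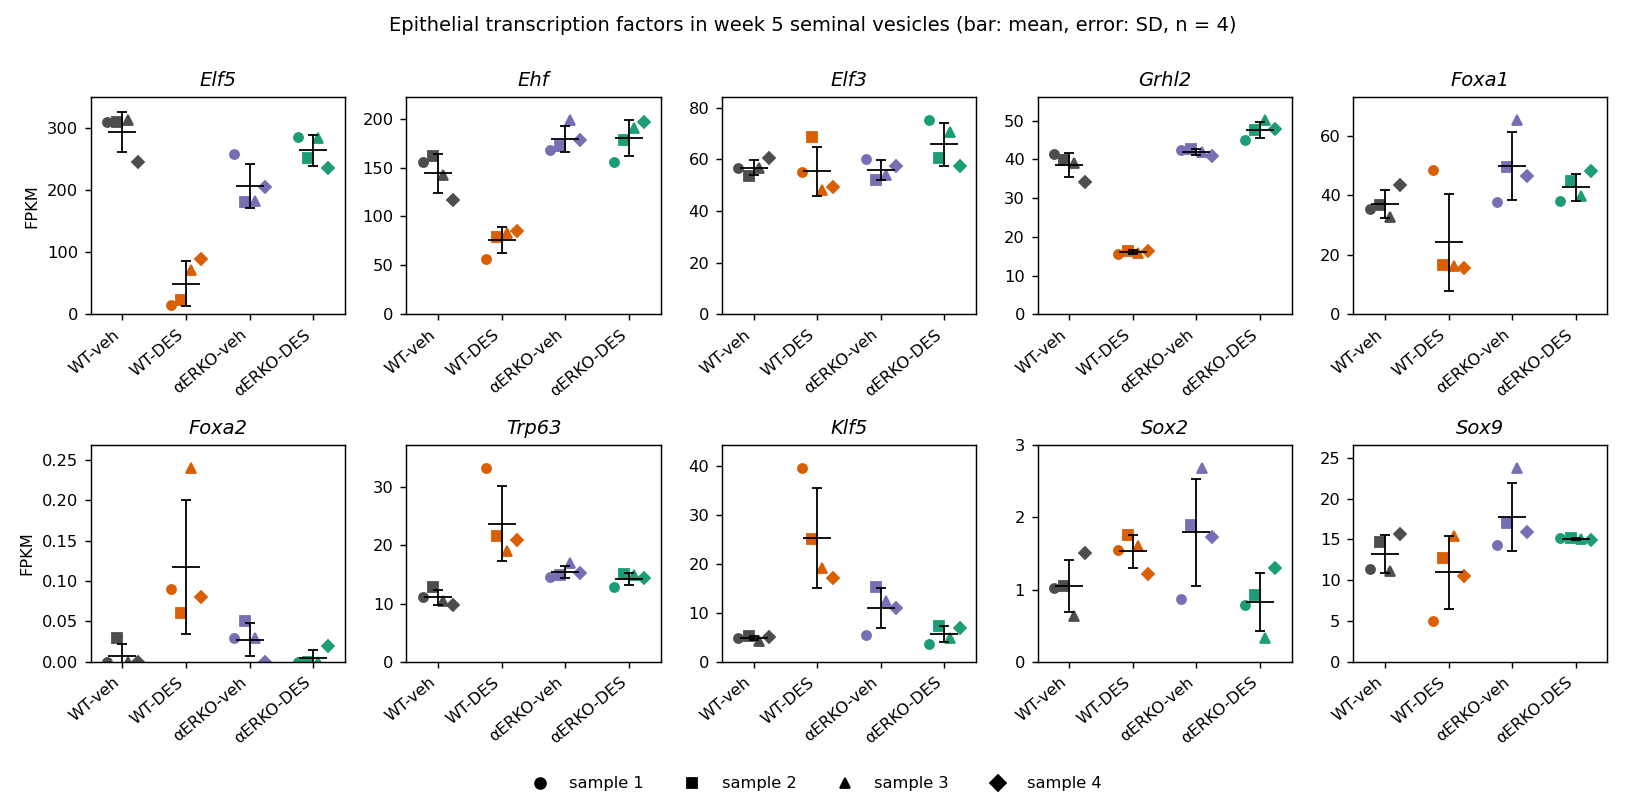
FPKM (linear axis from 0, separate scale per gene) of the 10 factors in the 4 samples of each group, with mean and SD (n = 4). Elf5, Ehf and Grhl2 are lower in all 4 WT-DES samples than in any other sample, and Trp63 and Klf5 are higher in all 4, while Foxa1 is low in only 3 of the 4.

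In normal SV the epithelial ETS factors led the set. *Elf5*, which directs the secretory alveolar fate in mammary gland, had the highest mean in WT-veh (294 ± 32.4 FPKM, SD, n = 4), followed by *Ehf* (144 ± 19.6 FPKM), *Elf3* (56.8 ± 2.74 FPKM), *Grhl2* (38.6 ± 3.12 FPKM) and *Foxa1* (37.0 ± 4.70 FPKM). *Sox9* (13.2 ± 2.30 FPKM), *Trp63* (11.1 ± 1.31 FPKM), *Klf5* (4.80 ± 0.41 FPKM), *Sox2* (1.05 ± 0.36 FPKM) and *Foxa2* (0.0075 ± 0.015 FPKM) completed the order. Neighbours in this order were separated in every sample except *Grhl2* from *Foxa1* and *Sox9* from *Trp63*, whose samples overlapped. In WT-DES the order became *Ehf*, *Elf3*, *Elf5*, *Klf5*, *Foxa1*, *Trp63*, *Grhl2*, *Sox9*, *Sox2* and *Foxa2*. Neighbours among the first 6 overlapped, so the upper end of the WT-DES order was resolved only in part. *Ehf* lay above *Klf5*, *Foxa1* and *Trp63* in every WT-DES sample, and *Elf3* above *Klf5* and *Trp63*.

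*Elf5* fell further than any other factor tested. Its FPKM was 309, 309, 312 and 246 in WT-veh samples 1 to 4, and 15.8, 22.6, 70.8 and 89.6 in WT-DES. In αERKO-veh it was 258, 182, 182 and 206, and in αERKO-DES 286, 251, 285 and 236. All 4 WT-DES samples lay below all 12 others, yet WT-DES samples 1 and 2 were well below samples 3 and 4. The mean in WT-DES was 5.92-fold below WT-veh (log2 change −2.87, standard error 0.40, adjusted p = 1.13e-05). Without WT-DES sample 1 the change was −2.46.

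*Ehf*, an ETS factor of differentiated glandular epithelium, fell less. Its FPKM was 155, 162, 142 and 117 in WT-veh and 57.0, 79.2, 83.2 and 84.9 in WT-DES. αERKO-veh samples had 168, 172, 198 and 178, and αERKO-DES samples had 155, 178, 190.2 and 197. WT-DES did not overlap any other group, and the fall against WT-veh was 1.89-fold (log2 change −0.92, standard error 0.13, adjusted p = 1.36e-05). *Elf5* and *Ehf* are neighbours on chromosome 2 (GRCm38, GENCODE M21), with *Ehf* at 103263433 to 103303278 on the minus strand, *Elf5* at 103411688 to 103450989 on the plus strand and 108 kb between them. The ratio of *Elf5* to *Ehf* FPKM was 1.91 to 2.20 in WT-veh, and 0.28, 0.29, 0.85 and 1.05 in WT-DES samples 1 to 4. In the αERKO groups it was 0.92 to 1.54 without DES and 1.20 to 1.84 with DES, so the 2 neighbours did not keep 1 proportion.

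*Elf3*, the third epithelial ETS factor, did not pass the test in WT. Its FPKM was 56.5, 53.7, 56.8 and 60.3 in WT-veh and 55.3, 68.6, 48.3 and 49.1 in WT-DES. Values were 60.2, 51.8, 53.9 and 57.6 for αERKO-veh samples and 75.0, 60.6, 70.4 and 57.3 for αERKO-DES samples. WT-DES straddled WT-veh, with a log2 change of −0.05 (standard error 0.11, adjusted p = 0.68) whose sign turned under quantile, equal-total and epithelial scaling. The *Elf3* exons share bases with those of *Gm26642*, and whether the counting used strand was not stated.

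Promoter sequences are shown for the member that fell most, *Elf5*, for *Foxa1*, described next, and for *Elf3*, which did not pass the test. Each runs 5′ to 3′ on the gene's strand from RefSeq (GRCm38.p6), upstream of a RefSeq start and trimmed of annotated exons, at chr2:103423818-103424061 (plus) for the downstream *Elf5* start, chr12:57546122-57546361 (minus) for *Foxa1* and chr1:135258569-135258722 (minus) for *Elf3*. Capitals mark motif matches on either strand.
Elf5: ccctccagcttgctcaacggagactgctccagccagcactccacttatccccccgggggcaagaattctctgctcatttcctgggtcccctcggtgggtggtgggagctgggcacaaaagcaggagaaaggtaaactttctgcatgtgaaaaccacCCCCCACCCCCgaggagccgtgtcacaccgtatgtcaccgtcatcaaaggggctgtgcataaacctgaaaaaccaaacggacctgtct
Foxa1: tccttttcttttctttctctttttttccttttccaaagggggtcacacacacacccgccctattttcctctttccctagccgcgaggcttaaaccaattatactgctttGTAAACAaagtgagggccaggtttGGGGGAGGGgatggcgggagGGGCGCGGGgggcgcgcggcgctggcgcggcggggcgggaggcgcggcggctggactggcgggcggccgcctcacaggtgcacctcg
Elf3: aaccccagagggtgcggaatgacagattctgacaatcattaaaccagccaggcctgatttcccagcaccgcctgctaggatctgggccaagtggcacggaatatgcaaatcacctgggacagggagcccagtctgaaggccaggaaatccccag
The motifs given here are a palindromic oestrogen response element, a Grainyhead-like motif (AACCNGGTT), a forkhead motif (TGTTTAC), a KLF motif (GGGNGNGGG), an ETS motif (CCGGAAG) and a SOX motif (ACAATG). The *Elf5* window held 2 overlapping KLF matches, which 24.8% of all promoters cut to that length also held at least once. In the *Foxa1* window there were 2 KLF matches (held by 24.4% of promoters) and 1 forkhead match (3.06%). The *Elf3* window held no match. A match describes the letters only, and the start used in the SV was not measured. Promoter entries were matched for 5 of the 10 factors, the others being *Foxa2* and *Sox2*. *Ehf*, *Klf5*, *Trp63*, *Grhl2* and *Sox9* had no entry.

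*Grhl2*, a regulator of epithelial junction genes, gave the most even response. Its FPKM was 41.4, 39.8, 38.9 and 34.2 in WT-veh and 15.6, 16.5, 15.9 and 16.5 in WT-DES. αERKO-veh samples had 42.4, 42.5, 41.9 and 40.8, and αERKO-DES samples had 45.1, 47.7, 50.02 and 47.8. The WT-DES samples spanned less than 1 FPKM, with an SD of 0.42 FPKM, and lay below all others. The fall was 2.39-fold (log2 change −1.21, standard error 0.06, adjusted p = 6.25e-10). *Grhl2* shares exon bases with *Gm16136*, so its value may include that gene's fragments.

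*Foxa1* had WT-DES sample 1 far above the other 3. Its FPKM was 35.3, 36.7, 32.5 and 43.6 in WT-veh and 48.6, 16.4, 16.1 and 15.5 in WT-DES. Values were 37.8, 49.6, 65.1 and 46.6 for αERKO-veh samples and 38.1, 44.7, 39.6 and 48.2 for αERKO-DES samples. WT-DES sample 1 lay above every WT-veh sample, and the other 3 lay below all 12 samples of the other groups. The change passed the test (1.53-fold lower, log2 change −0.77, standard error 0.28, adjusted p = 0.0219). Without WT-DES sample 1 it was −1.15 (adjusted p = 5.90e-06). The call was lost without WT-DES sample 2 (−0.65, adjusted p = 0.0668), sample 3 (−0.64, 0.0676) or sample 4 (−0.62, 0.0729), or WT-veh sample 4 (−0.69, 0.0589), and in a model of only the WT groups (−0.77, 0.0766).

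*Foxa2*, a forkhead factor of endoderm, was close to undetected. Its FPKM was 0, 0.03, 0 and 0 in WT-veh and 0.09, 0.06, 0.24 and 0.08 in WT-DES. αERKO-veh samples had 0.03, 0.05, 0.03 and 0, and αERKO-DES samples had 0, 0, 0 and 0.02. All 4 WT-DES samples were above 0, and 3 of 4 were in αERKO-veh, but the values lie near what a few fragments give and no fold was taken. Of *Foxa1* and *Foxa2*, *Foxa1* was the one expressed in the SV.

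*Trp63*, the basal and squamous master regulator, rose in WT-DES. Its FPKM was 11.1, 12.9, 10.5 and 9.85 in WT-veh and 33.3, 21.7, 19.1 and 20.9 in WT-DES. Values were 14.6, 14.9, 16.9 and 15.3 for αERKO-veh samples and 12.8, 15.04, 14.9 and 14.3 for αERKO-DES samples. WT-DES lay above all other samples, with sample 1 the highest, and the rise was 2.14-fold (log2 change 1.01, standard error 0.13, adjusted p = 7.84e-06). Gene level FPKM does not separate the TA and ΔN isoforms of p63.

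*Klf5*, a zinc-finger factor of basal and proliferating epithelium, gave the largest rise. Its FPKM was 4.79, 5.19, 4.23 and 4.99 in WT-veh and 39.5, 25.1, 19.03 and 17.1 in WT-DES. αERKO-veh samples had 5.46, 15.3, 12.4 and 10.9, and αERKO-DES samples had 3.63, 7.25, 4.92 and 6.87. Every WT-DES sample exceeded every other sample, and the rise was 5.25-fold (log2 change 2.10, standard error 0.28, adjusted p = 8.83e-06). WT-DES sample 1, which had the highest *Trp63* and *Klf5*, also had the lowest *Elf5*, *Ehf* and *Sox9*. This order over 4 samples is a description.

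The SOX factors, linked to progenitor states in many epithelia, did not pass the test in WT. *Sox9* was at 11.4, 14.7, 11.1 and 15.6 FPKM in WT-veh and 5.03, 12.8, 15.5 and 10.6 in WT-DES. Values were 14.3, 17.1, 23.8 and 15.9 for αERKO-veh samples and 15.2, 15.1, 15.1 and 14.9 for αERKO-DES samples. WT-DES sample 1 was the lowest of the 16, samples 2 and 3 lay within the WT-veh range and sample 4 just under it. The log2 change of *Sox9* in WT was −0.33 (standard error 0.24, adjusted p = 0.228), and its sign turned under equal-total and epithelial scaling. *Sox2* was at 1.02, 1.05, 0.63 and 1.5 FPKM in WT-veh and 1.54, 1.76, 1.60 and 1.21 in WT-DES. αERKO-veh samples had 0.87, 1.89, 2.68 and 1.72, and αERKO-DES samples had 0.78, 0.92, 0.33 and 1.30. All groups overlapped, and the log2 change of *Sox2* in WT was 0.31 (standard error 0.20, adjusted p = 0.173), negative under quantile normalization but called higher with equal totals (0.56, adjusted p = 0.0219), after length correction (0.52, adjusted p = 0.0370) and after epithelial centring. *Sox2* was close to the minimum for testing in every group, and it lies inside the span of the noncoding gene *Sox2ot* without sharing exon bases with it.

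**Figure D2:**
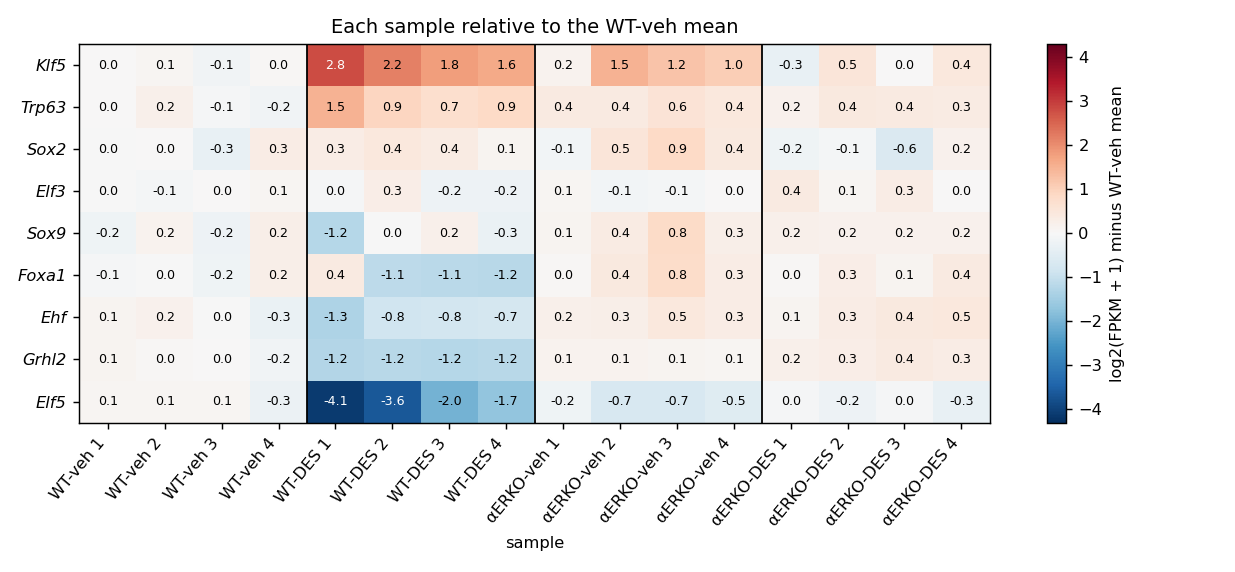
Heat map of log2(FPKM + 1) minus the WT-veh mean for the 9 tested factors (rows) in the 16 samples (columns), with each value printed. WT-DES samples are raised for Klf5 and Trp63 and lowered for Elf5, Grhl2 and Ehf in all 4, and WT-DES sample 1 is the exception for Foxa1.

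Counted together, 6 of the 9 tested factors were called in WT-DES against WT-veh, 2 higher (*Klf5* and *Trp63*) and 4 lower (*Elf5*, *Grhl2*, *Ehf* and *Foxa1*). DES changed 52.7% of all tested genes by the same rule, 28.9% higher and 23.9% lower, so the count is near the background and is no result about these factors as a set. The 2 groups did not overlap for 5 of the 9, against 66.7% of all tested genes. The median log2 change was −0.33 over the 9 and −0.01 over all tested genes. Leaving out single samples gave counts of 5 or 6.

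These values come from whole SV, in which fewer cells of a type and less RNA per cell cannot be told apart. General epithelial genes moved too. Among 21 epithelial junction and identity genes, 14 fell and 2 rose in WT-DES (median log2 change −0.87), with summed levels of 3362 to 3794 FPKM in WT-veh and 1710 to 2424 in WT-DES. Of all tested genes, 23.9% were called lower and 28.9% higher. The other 5 of the list were not called, namely *Cdh1* (log2 change 0.25), *Spint1* (0.01), *Esrp2* (−0.22), *Cldn4* (−0.41) and *Marveld2* (−0.46). *Cldn3*, a tight junction claudin, fell from 415 to 116 FPKM, *Spint2*, a serine protease inhibitor, from 686 to 221 and *Rab25*, an epithelial trafficking GTPase, from 204 to 69.97. *Krt7*, a simple epithelial keratin, rose, at 31.8 to 50.4 FPKM in WT-veh, 336 in WT-DES sample 1 and 81.7 to 121 in the other 3. When each sample was centred on the mean of these 21 genes, the median of all tested genes moved from −0.01 to 0.57.

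Centring moved the WT change of every factor up by the same amount, close to the shift of that median, so the distances between factors stayed as they were while calls near the threshold did not. *Klf5* (log2 change 2.69) and *Trp63* (1.59) kept their calls as higher, and *Elf5* (−2.29) and *Grhl2* (−0.62) theirs as lower. The calls of *Ehf* (−0.33, adjusted p = 0.114) and *Foxa1* (−0.18, adjusted p = 0.472) were lost, *Sox2* was called higher (0.90, adjusted p = 0.00107), and *Elf3* turned to 0.53 (adjusted p = 0.000267, under the fold). Relative to the moved median of 0.57, *Elf3* lay close to the typical gene, *Klf5*, *Trp63* and *Sox2* above it, and *Sox9* (0.26), *Foxa1*, *Ehf*, *Grhl2* and *Elf5* below it. The numbers of all genes called higher and lower were 4613 and 3815 on the deposited scale, 7813 and 1256 after centring, and 6744 and 1828 with totals made equal without the 20 most abundant genes. The directions of *Klf5*, *Trp63*, *Elf5*, *Grhl2*, *Ehf* and *Foxa1* in WT were the same under median-ratio, quantile, equal-total and epithelial scaling. The calls of *Ehf* and *Foxa1* were also lost under quantile normalization (−0.31, adjusted p = 0.122, and −0.60, adjusted p = 0.0883) and with equal totals (−0.49, adjusted p = 0.0121 but under the fold, and −0.35, adjusted p = 0.240).

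**Figure D3:**
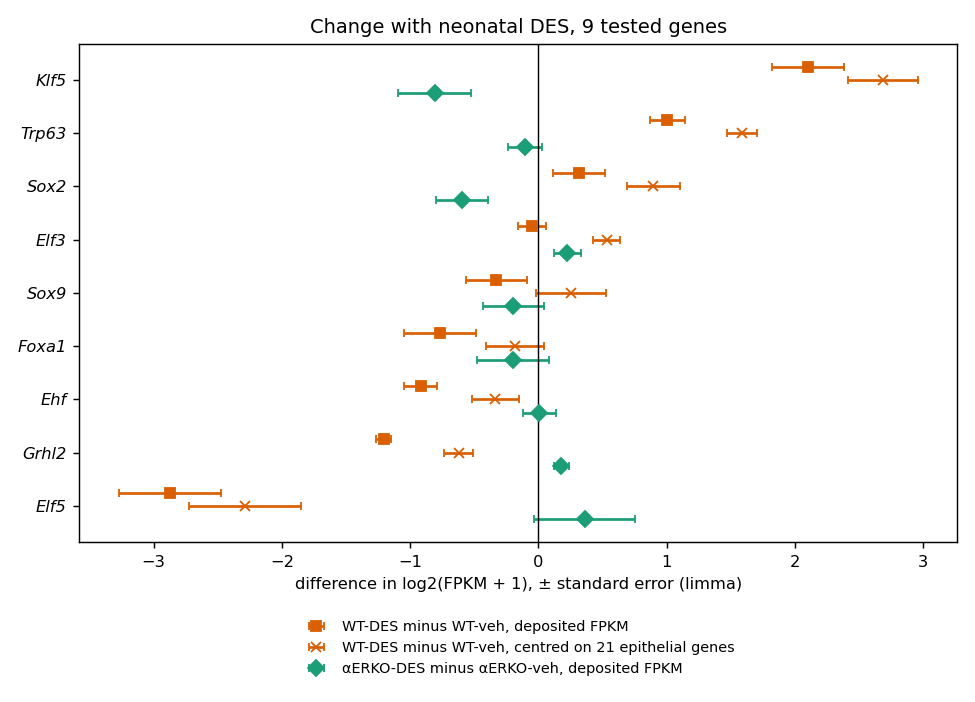
Difference in log2(FPKM + 1) ± standard error for the 9 tested factors: WT-DES minus WT-veh as deposited (squares), the same after centring on 21 epithelial genes (crosses), and αERKO-DES minus αERKO-veh as deposited (diamonds). Klf5 (2.10) and Elf5 (−2.87) are the extremes in WT, and no factor was called in αERKO.

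Without DES, loss of ERα moved *Klf5* past the test. Of the 9 factors it was the 1 called in αERKO-veh against WT-veh, where 7.12% of all tested genes were called and 4.5% were called higher. That background rested on single samples, since the 1139 genes called (719 higher) became 418 (254 higher) without αERKO-veh sample 2 and 716 (429 higher) without WT-veh sample 3. *Klf5* was 2.30-fold higher (log2 change 0.98, standard error 0.28, adjusted p = 0.0225). Its αERKO-veh samples 2 to 4, at 10.9 to 15.3 FPKM, were above sample 1, at 5.46 FPKM. The call was lost without WT-veh sample 3 (0.93, adjusted p = 0.0618) or 4 (0.99, 0.0516), or without αERKO-veh sample 2 (0.80, 0.0828), 3 (0.90, 0.0539) or 4 (0.95, 0.0519). Without αERKO-veh sample 1 the count was 2, with *Sox2* called as well (0.60, adjusted p = 0.0277). *Trp63* was at 1.39-fold with all αERKO-veh samples above WT-veh (log2 change 0.45, standard error 0.13, adjusted p = 0.0254), under the fold required. αERKO-veh samples 2 to 4 also differed from sample 1 in skeletal muscle markers, with a mean log2(FPKM + 1) over 8 genes of 6.67 to 7.54 against 4.16. WT-veh sample 4 had a muscle level in that range (6.73, against 2.34 to 3.72 in WT-veh samples 1 to 3) with *Klf5* at 4.99 FPKM, inside the range of its group. Over the list 3 of 8 rose in αERKO-veh, the summed level was 599 to 2170 FPKM there and 577 to 1797 in WT-veh, and no marker was at 0 throughout. Of 6 endothelial markers 2 rose as well (summed level 81.7 to 131 FPKM in αERKO-veh and 85.6 to 104 in WT-veh), and *Krt4*, a keratin of stratified epithelium, was at 5.14 FPKM in αERKO-veh sample 1 and 31.0 to 49.0 in samples 2 to 4. *Psca*, which was not called, split the same samples, at 20 and 62.9 to 146 FPKM. In WT-veh sample 4 *Krt4* (18.4 FPKM) and *Psca* (62.0 FPKM) were also above the other WT-veh samples (3.35 to 3.58 and 6.30 to 16.6). The samples also differed in how FPKM followed transcript length. Across genes, Spearman's rho of length with a sample's log2 departure from the gene's mean ran from −0.52 to −0.21 for WT-veh samples, and was −0.090 in αERKO-veh sample 1 and 0.11 to 0.44 in αERKO-veh samples 2 to 4 (0.16 to 0.19 in WT-DES and −0.28 to 0.17 in αERKO-DES). Corrected for this trend, 447 of 15048 genes with a known length were called in this comparison, against 1139 of 15988, and *Klf5* was still called. The part of muscle and endothelial cells in the *Klf5* result was not tested.

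DES did not lead to a call for any of the 9 factors in αERKO SVs. In αERKO-DES against αERKO-veh, limma called 0 of 9, with 3 at an unadjusted p under 0.05, and 1.49% of all tested genes were called. This background was not stable. The 239 genes behind it became 1 without αERKO-veh sample 4, 2 without αERKO-DES sample 1, 2 or 3, 3 without αERKO-veh sample 2 or WT-veh sample 3, and 76 to 150 without WT-veh sample 1 or 2 or WT-DES sample 3 or 4. It was 559 without WT-DES sample 1, 629 without αERKO-veh sample 1 and 5 under quantile normalization. Those 3 were *Grhl2* (log2 change 0.18, standard error 0.06, adjusted p = 0.0872), *Klf5* (−0.81, standard error 0.28, adjusted p = 0.106) and *Sox2* (−0.59, standard error 0.20, adjusted p = 0.101). Without αERKO-veh sample 1, *Klf5* (−1.08, adjusted p = 0.0223) and *Sox2* (−0.77, adjusted p = 0.0272) were called lower, and both were also called with sample weights (2 of 9). Markers of other cells moved with them. In αERKO-DES 6 of 8 skeletal muscle markers fell (median log2 change −4.35, summed level 479 to 680 FPKM with DES against 599 to 2170 FPKM without), as did 4 of 6 adipose markers (median −2.95, summed level 17.0 to 61.0 FPKM with DES against 88.2 to 1044 without). Of 6 fibroblast markers 1 fell (median −0.49, summed level 496 to 594 FPKM with DES against 599 to 980 without), as did 1 of 6 endothelial markers (median −0.28). The part of these cells in the values of *Klf5* and *Sox2* was not tested. *Elf5* was at 0.36 with a standard error of 0.40, the widest of the 9, so its change in αERKO is loosely bounded.

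αERKO-DES was also set against WT-veh. None of the 9 was called by limma (0, with 3 at an unadjusted p under 0.05), and 3.18% of all tested genes were. The 508 genes behind that share became 198 without αERKO-DES sample 3, 208 without αERKO-DES sample 4, 215 without WT-veh sample 4, 255 without WT-veh sample 3 and 878 without αERKO-DES sample 1. *Grhl2* was higher in all 4 αERKO-DES samples than in WT-veh (log2 change 0.30, standard error 0.06, adjusted p = 0.00828) but at 1.23-fold stayed under the required ratio. *Trp63* (0.34, adjusted p = 0.122) and *Ehf* (0.33, adjusted p = 0.125) did not pass. Called lower were 5 of 6 adipose markers (median log2 change −3.32), 3 of 6 fibroblast markers (−0.53), 1 of 6 endothelial and 1 of 10 leukocyte markers. Their part in these values was not tested.

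After DES, the genotypes differed at 7 of the 9 factors, beside 53.4% of all tested genes. In αERKO-DES relative to WT-DES, *Elf5* (log2 change 2.72, adjusted p = 1.75e-05), *Grhl2* (1.51, 5.85e-11), *Ehf* (1.24, 5.28e-07) and *Foxa1* (0.97, 0.00563) were higher, as 23.7% of all genes were. *Klf5* (−1.94, adjusted p = 1.83e-05), *Trp63* (−0.67, 0.000362) and *Sox2* (−0.49, 0.0409) were lower, as 29.6% of all genes were. The *Trp63* call was lost without WT-DES sample 1, where the difference was −0.50 and under the fold, and after length correction (−0.50, under the fold). That of *Foxa1* was lost with equal totals (0.60, adjusted p = 0.0517) and after epithelial centring (0.34, adjusted p = 0.179). The *Sox2* call was lost without WT-DES sample 1 (−0.48, adjusted p = 0.0621), 2 (−0.44, 0.0898) or 3 (−0.47, 0.0746), αERKO-veh sample 4 (−0.49, 0.0503) or αERKO-DES sample 1 (−0.48, 0.0703), 2 (−0.52, 0.0530) or 3 (−0.34, 0.143). The replicate block also ended it (−0.49, 0.0533), and quantile normalization turned the difference to 0.097 (adjusted p = 0.681). *Sox9* was called without WT-DES sample 3 (0.70, adjusted p = 0.0145). Markers of other cells moved in this comparison too, and their part in it was not tested. In αERKO-DES all 10 leukocyte markers (summed level 160 to 256 FPKM), all 6 fibroblast markers (496 to 594), all 6 endothelial markers (75.1 to 87.3) and all 6 adipose markers (17.0 to 61.0, median log2 change −5.03) were lower, and 5 of 6 smooth muscle markers (2809 to 3545) were higher.

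The difference between the genotypes in their response to DES was tested directly as an interaction, the change in WT minus that in αERKO. It was called for 6 of the 9, beside 56.4% of all tested genes (29.6% more positive and 26.9% more negative in WT). *Klf5* (2.91, standard error 0.40, adjusted p = 1.45e-05), *Trp63* (1.11, standard error 0.19, adjusted p = 0.000104) and *Sox2* (0.91, standard error 0.29, adjusted p = 0.0107) had the more positive change in WT. *Elf5* (−3.23, standard error 0.56, adjusted p = 0.000121), *Grhl2* (−1.39, standard error 0.08, adjusted p = 1.17e-08) and *Ehf* (−0.92, standard error 0.18, adjusted p = 0.000372) had the more negative. The call of *Ehf* was lost under quantile normalization (−0.13, adjusted p = 0.656), with equal totals (−0.36, adjusted p = 0.158) and after epithelial centring (−0.21, adjusted p = 0.494), and that of *Sox2* under quantile normalization (0.25, adjusted p = 0.451). *Foxa1* was at −0.57 (adjusted p = 0.206), and was called only without WT-DES sample 1 (−0.96, adjusted p = 0.000574) or with sample weights (−0.91, adjusted p = 0.000365). The comparisons share groups, so their calls are not independent of each other.

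Other epithelial regulators moved in both directions as well. Of 19 tested genes in that list, 10 fell and 6 rose in WT-DES (median log2 change −0.64). Of all tested genes, 23.9% were called lower and 28.9% higher. *Spdef*, an ETS factor of secretory epithelium, fell from 48.9 to 5.10 FPKM, and *Gata2*, a zinc-finger factor of the GATA family, from 323 to 64.7. *Grhl3*, the Grainyhead-like factor of stratified barrier epithelium, rose where *Grhl2* fell. It was at 0.07 to 0.67 FPKM in WT-veh and at 47.1, 4.10, 4.15 and 5.32 in WT-DES, so sample 1 set most of its mean. *Runx1* rose from 1.17 to 7.84 FPKM. *Pitx1*, a homeobox factor, rose too, at 0.06 to 0.81 FPKM in WT-veh, 39.8 in WT-DES sample 1 and 1.02 to 3.64 in the others. After centring on epithelial genes 7 were called higher and 6 lower. In αERKO-DES against αERKO-veh, 1 of the 19 fell and none rose.

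Many genes of the basal layer and of squamous differentiation were also called higher in WT-DES, beside 28.9% of all tested genes. These lists were chosen with earlier results of these data known, so their counts are no independent result. Of 19 basal epithelial genes 11 rose and 1 fell in WT-DES (median log2 change 0.99). *Krt5*, the basal keratin, was at 52.1 to 69.1 FPKM in WT-veh and at 208, 130.3, 67.7 and 152 in WT-DES. The desmosomal genes *Pkp1* (3.46 to 12.97 FPKM), *Dsc3* (0.13 to 3.0) and *Dsg3* (0.0025 to 2.63) rose, and *Itga3*, an integrin subunit, fell from 43.5 to 25.7 FPKM. After centring on epithelial genes 16 of the 19 were called higher and none lower, so the call of *Itga3* was lost. Of all 15988 tested genes, 7813 were called higher and 1256 lower in that setting. *Krt14*, the partner of *Krt5*, did not pass the test (log2 change 0.49, adjusted p = 0.187). Of 19 tested squamous genes 13 rose and none fell (median 1.76), among them *Ivl*, a cornified envelope protein (0.35 to 2.61 FPKM in WT-veh and 25.9 to 181 in WT-DES), and the keratin genes *Krt6a* (0.04 to 0.11 and 4.44 to 72.2) and *Krt13* (0.04 to 0.20 and 2.39 to 150.3).

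The level of the squamous list among the WT-DES samples was highest in sample 4, while that of *Trp63* and *Klf5* was highest in sample 1. Its mean log2(FPKM + 1) over 21 genes was 2.63, 2.80, 2.08 and 4.88 in WT-DES samples 1 to 4, and 1.06 to 1.61 in WT-veh. *Krt13* was at 2.56, 14.5, 2.39 and 150.3 FPKM and *Krt6a* at 6.49, 14.0, 4.44 and 72.2, so sample 4 set most of their means. *Ivl*, at 181, 25.9, 26.8 and 32.3 FPKM, was highest in sample 1, so genes of the list did not share 1 order. Without WT-DES sample 4, 13 squamous genes were called higher too, and the median over the list went down from 1.76 to 0.93. In αERKO-DES against αERKO-veh none of the basal genes was called, and 1 squamous gene, *Krt4*, fell. Against WT-veh, 3 of 19 basal and 1 of 19 squamous genes were called higher in αERKO-veh, beside 4.5% of all tested genes. In αERKO-DES against WT-veh 2 of 19 basal genes were called higher and no squamous gene was called.

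**Figure D4:**
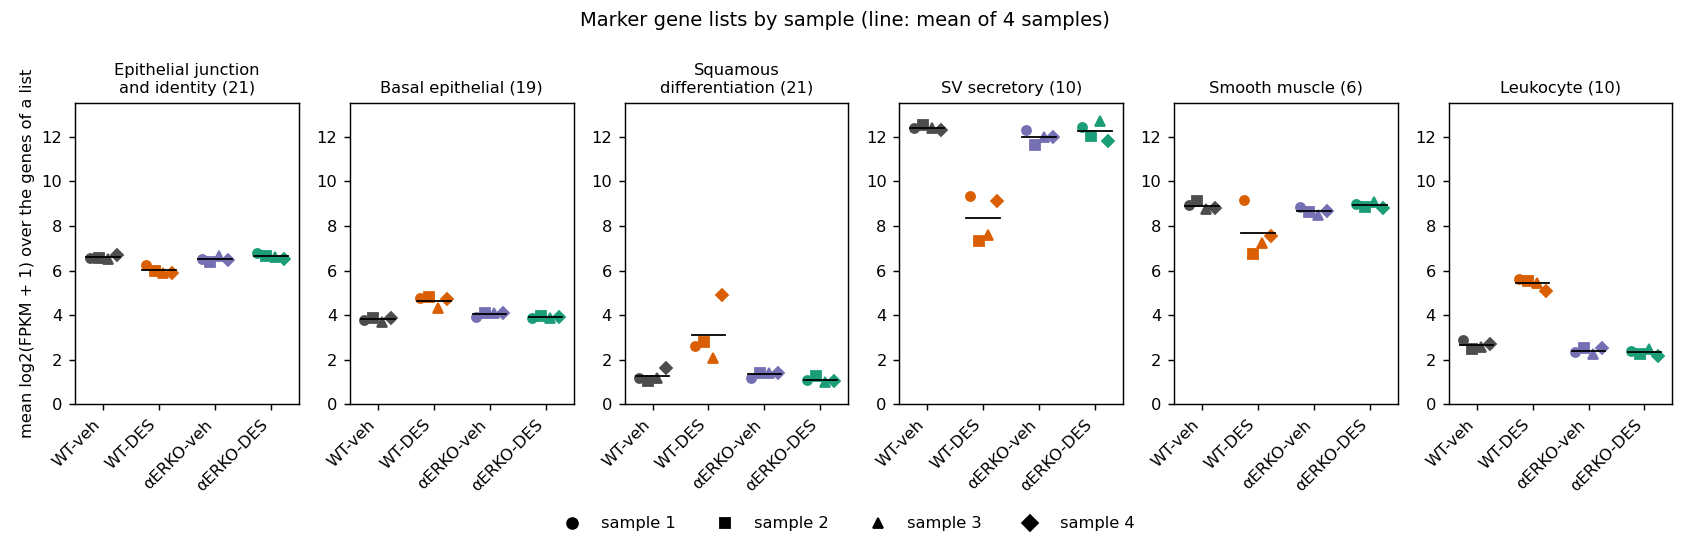
Mean log2(FPKM + 1) over 6 gene lists in each sample, with the mean of each group as a line. WT-DES is lower for epithelial and SV secretory genes, higher for basal, squamous and leukocyte genes, and its sample 1 (9.16) stands just above the WT-veh samples for smooth muscle genes.

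All 10 SV secretory genes, products of the differentiated luminal cell, fell in WT-DES (median log2 change −4.16), where *Elf5*, *Ehf*, *Grhl2* and *Foxa1* also fell. The largest falls on the log2 scale were those of *Sva* (3650 to 4330 FPKM in WT-veh and 48.9 to 335 in WT-DES), *Svs3a* (3596 to 4069 and 50.7 to 363) and *Svs1* (3807 to 4662 and 44.95 to 447). Their mean log2(FPKM + 1) was 9.36, 7.32, 7.62 and 9.12 in WT-DES samples 1 to 4, so sample 1 held the lowest *Elf5* beside the highest secretory level of its group. The 4 tested steroid receptors rose, among them *Esr1* from 3.87 to 14.3 FPKM and *Pgr*, the progesterone receptor, from 0.69 to 9.88. The 5 anterior prostate markers, of a gland that lies against the SV, gave 4 lower and 1 higher. Those that fell included *Pbsn* (2010 to 2179 FPKM in WT-veh and 10.6 to 166 in WT-DES), *Tgm4* (1453 to 1856 and 6.62 to 152) and *Msmb* (94.8 to 1586 and 3.31 to 41.9), with WT-DES sample 1 the highest of its group for each. *Psca* rose, at 62.0 FPKM in WT-veh sample 4 and 6.30 to 16.6 in the others, and at 512 in WT-DES sample 1 and 94.4 to 155 in the others. In αERKO-veh and αERKO-DES *Pbsn* and *Tgm4* were at 1755 to 1965 FPKM on average. With DES in αERKO *Msmb* fell and was the 1 of the 5 called, at 29.1 to 248.9 FPKM with DES against 766 to 1509 without. By the methods the SV was separated from this gland at dissection, and how much prostate each sample held was not measured.

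Markers of other cells moved with the DES response in WT, and their part in the results for the 10 factors was not tested. All 10 leukocyte markers rose (summed level 248 to 403 FPKM in WT-veh and 1110 to 1737 in WT-DES), with *Ptprc*, the common leukocyte antigen, from 2.57 to 32.2 FPKM. The neutrophil genes *S100a9* (0.71 to 1.09 FPKM in WT-veh) and *S100a8* (0.69 to 2.25) were at 415 and 371 FPKM in WT-DES sample 1 and at 41.4 to 97.4 and 44.7 to 85.5 in the other 3. All 6 fibroblast markers rose (731 to 881 FPKM in WT-veh, 1916 to 2091 in WT-DES), the largest log2 change being that of *Lum* (31.0 to 202 FPKM). All 6 endothelial markers rose (85.6 to 104 FPKM in WT-veh, 160 to 265 in WT-DES), the largest log2 change being that of *Tek* (3.93 to 12.04 FPKM). Of 6 smooth muscle markers 5 fell (2993 to 3734 FPKM in WT-veh, 791 to 3580 in WT-DES), the largest log2 change being that of *Actg2*, at 413 to 597 FPKM in WT-veh, 642 in WT-DES sample 1 and 56.3 to 137 in the other 3. Of 6 adipose markers 4 rose (208 to 1042 FPKM in WT-veh, 825 to 1898 in WT-DES), the largest log2 change being that of *Plin1* (10.5 to 42.8 FPKM), but 1 did without WT-DES sample 4. Of 8 skeletal muscle markers 2 fell. *Acta1* was at 483 to 705 FPKM in WT-veh, at 235 in WT-DES sample 1 and at 24.9 to 49.0 in the other 3. *Ckm* was at 273 FPKM in WT-veh sample 4 and 32.7 to 47.2 in samples 1 to 3, and at 80.2 in WT-DES sample 1 and 1.82 to 13.2 in samples 2 to 4. No marker of these lists was at 0 in every sample of a group. WT-DES sample 1, the sample with high *Foxa1*, also had the highest smooth muscle level of its group (mean log2 of 9.16 against 6.76 to 7.54) and the highest epithelial level (6.26 against 5.87 to 6.00). It was the only WT-DES sample whose summed smooth muscle level (3580 FPKM) lay in the WT-veh range, and its mean log2 lay just above it (8.78 to 9.13 in WT-veh).

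The genes nearest in pattern to each called factor were found over the 16 samples, after centring on WT-veh, as those with the smallest root mean square (RMS) difference in log2(FPKM + 1). *Elf5* was nearest to *Lmo3* (RMS 0.18) and *Tpd52l1* (0.31). *Klf5* was nearest to *Ahnak* (0.28) and *Mgat5* (0.29), *Trp63* to *Ston2* (0.13) and *BC057381* (0.14), and *Grhl2* to *Tada2b* (0.089) and *Tm9sf3* (0.0897). *Ehf* was nearest to *Lig3* (0.11) and *Pm20d2* (0.12), *Foxa1* to *Grhl1* (0.21) and *Ccdc68* (0.21), and *Sox2* to *Lpcat2* (0.19) and *Ldlrad3* (0.21). *Lmo3*, nearest to *Elf5*, fell from a mean of 61.3 FPKM in WT-veh to 9.51 in WT-DES and stood at 48.2 in αERKO-veh. For factors that moved little, small RMS values are shared by many genes, and all these points come from the same 16 samples.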

How the data were processed

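The authors sequenced paired reads of 126 nt, removed those whose quality averaged 20 or less, aligned the rest to mouse genome mm10 (GRCm38) by TopHat2 2.0.4 and deposited FPKM per gene from Cufflinks 2.0.2. Library strandedness, gene annotation and scaling between samples were not given in the sources used here. The 10 factors and the gene lists were chosen with earlier results of these data known. The log2(FPKM + 1) values entered limma 3.58.1 (R 4.3.3), in 1 model of 16 samples with a mean per group, a variance trend in eBayes and Benjamini-Hochberg adjustment over 15988 genes. Called genes are as defined above (for the interaction, a log2 difference of at least 1.5-fold). Genes named after their values were seen were *Krt5*, *Krt14*, *Krt4* and the 5 epithelial junction and identity genes not called in WT. All 10 factors were named in each comparison, and from each list up to 3 called genes with the largest rise and 3 with the largest fall in WT, with *Esr1*. Some genes under this rule, and a promoter motif, are not reported here. The 2 nearest genes per called factor were named. Replicate numbers did not pair samples (correlations of deviations from −0.21 to 0.28). No 2 samples were identical. Alternatives were other pseudocounts, minima, models, scalings, thresholds and leaving out each sample. Coordinates are from GENCODE M21. Steps were tested on simulated data. Figures were drawn by matplotlib 3.10.9 in Python 3.11.15, with numpy 2.4.6 and pandas 2.3.3.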

Additional observations from a re-analysis of the deposited data

Results flagged for a closer look

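Single samples stood apart from their group by Dixon's ratio in 5 of the 40 gene and group combinations. Chance alone gives about 1 in 20 for normally distributed values, a rate that does not hold for values at or near 0. *Foxa1* was at 48.6 FPKM in WT-DES sample 1, with the other 3 samples at 15.5 to 16.4 FPKM, and *Elf5* was at 246 FPKM in WT-veh sample 4, below 309 to 312 in the others. The 3 other cases were *Foxa2*, at 0.03 FPKM in WT-veh sample 2, 0.24 in WT-DES sample 3 and 0.02 in αERKO-DES sample 4, where all values are near 0. In WT-veh and αERKO-DES all other *Foxa2* samples were at 0, which by itself sets the ratio to 1.

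The response to DES differed between WT and αERKO, by the interaction in limma, for *Klf5* (2.91), *Trp63* (1.11), *Sox2* (0.91), *Ehf* (−0.92), *Grhl2* (−1.39) and *Elf5* (−3.23), given as the log2 change of WT less that of αERKO. The interaction was called for 56.4% of all tested genes. All 4 WT-DES samples lay outside the range of the αERKO-DES samples for *Klf5*, *Trp63*, *Ehf*, *Grhl2* and *Elf5*, whereas those of *Sox2* overlapped. No share over all tested genes is given for this separation, so it is a description of these values. The *Ehf* difference was −0.13 (adjusted p = 0.656) under quantile normalization, −0.36 (0.158) with equal totals and −0.21 (0.494) after epithelial centring, and that of *Sox2* was 0.25 (0.451) under quantile normalization, none of which passed the test.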

How the results depend on the processing

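All values rest on 4 samples a group, and FPKM hold no counts, so no depth or counting error could be given. The calls of *Klf5*, *Trp63*, *Elf5* and *Grhl2* in WT held under every alternative run. For ERα loss without DES the number of factors called was 2 with sample weights or equal totals without the 20 most abundant genes, 0 at an adjusted p of at most 0.01, and 0 to 2 leaving out single samples. For DES in αERKO it was 2 with sample weights and 0 to 2 leaving out single samples. The weights were estimated without reaching their tolerance. Without a minimum *Foxa2* was called in WT and between the DES groups, at a level near 0. The replicate block removed the *Sox2* call between DES groups (−0.49, adjusted p = 0.0533) and no other, and the correlation of same-numbered samples (−0.21 to 0.28) gave no pairing.

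Reversals concerned changes from −0.57 (*Foxa1* in the interaction) to 0.52 (*Sox9* between DES groups), and their cause was not tested. Of these only the *Sox2* difference between DES groups (−0.49) was called on the deposited scale. With DES in WT, *Elf3* turned to 0.42 under quantile normalization, 0.38 with equal totals, 0.53 after epithelial centring and 0.15 after length correction, with −0.16 to 0.0093 leaving out samples. *Sox9* turned to 0.033 with sample weights, 0.074 with equal totals and 0.26 after centring, and *Sox2* to −0.13 under quantile normalization. With ERα loss alone, *Elf3* turned to 0.022 with weights, 0.11 under quantile normalization, 0.15 with equal totals, 0.068 after centring and 0.13 after length correction, with −0.061 to 0.010 leaving out samples. With DES in αERKO, *Ehf* turned to −0.18 under quantile normalization, −0.12 with equal totals and −0.13 after centring, with −0.038 to 0.075 leaving out samples. Between DES groups, *Sox2* turned to 0.10 and *Elf3* to −0.22 under quantile normalization. *Elf3* was at −0.13 with equal totals and −0.37 after centring (limma adjusted p = 0.00432), and *Sox9* at −0.11 after centring. In the interaction, *Sox9* turned to 0.12 with weights, 0.39 with equal totals and 0.59 after centring, with −0.32 to 0.17 leaving out samples. *Elf3* turned to 0.33 under quantile normalization, 0.28 with equal totals and 0.44 after centring, and *Foxa1* to 0.15 after centring.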
